A study of Mus musculus with 5 samples.

Results

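NF-kB is a small family of transcription factors that carry inflammatory signals to the nucleus. Of the 10 genes described here, 5 encode its subunits (Nfkb1, Nfkb2, Rela, Relb and Rel), 3 encode proteins of the IkB family that bind those subunits (Nfkbia, Nfkbiz and Bcl3) and 2 encode feedback regulators that act on ubiquitin chains (Tnfaip3 and Birc3). The genes were chosen by name. A gene was measured by the probe set that carried its symbol alone in the platform annotation, and by the one with the highest mean if there were several. This gave 9 members, each with 1 probe set, among 19505 genes with a named probe set. Nfkb1 was not matched and is not analysed here.

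The values came from 3T3-L1 cells, a mouse preadipocyte line that forms fat cells in culture. All 5 samples had been differentiated for 4 days with dexamethasone (1 µM), IBMX (0.5 mM) and insulin (5 µg/mL), then 2 days with insulin and 1 day in basal medium, and had then spent 72 h in RPMI-1640 with 10% serum. The 3 exposed samples shared that medium with MM.1S cells, a human multiple myeloma line held behind a membrane with 0.4 µm pores, and the 2 control samples did not. The labels call the samples replicates without stating separate cultures, so the p-values measure a spread that may be technical, and the number of arrays limits the precision.

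In resting cells, inhibitors such as IkB-alpha, the product of Nfkbia, hold NF-kB dimers in the cytoplasm. Cytokine and Toll-like receptors activate a kinase complex that marks IkB-alpha for destruction, and the freed dimers switch on chemokines, cytokines and acute phase proteins. Nfkbia and Tnfaip3 are themselves targets, so that the response limits itself, and fat cells are known to respond to TNF and interleukin-1 in this way.

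The promoters were searched for the family's binding motif. A window from 250 bases before to 50 bases after each annotated start (RefSeq, build GRCm38.p6) was found for 7 of the 9 measured members. These windows were searched on both strands for the kB consensus. Overlapping matches, which arise because the motif is close to a palindrome, were merged, and no other motif was searched. Nfkb2, Rel, Nfkbia, Bcl3 and Tnfaip3 held at least 1 match, while Rela and Birc3 held none in these windows. The share was 5 of 7 (71.4%), against 2581 of 27025 genes (9.55%) overall. For each gene the match whose first base lies closest to an annotated start is shown. These are letters through which the family's own genes could be bound. Capitals mark the match, with 10 bases on either side, 5′ to 3′ on the strand of the gene.

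Nfkbia: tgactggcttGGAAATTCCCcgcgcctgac
Bcl3: tcggcggcagGGGAAGTCCCgctgcccggc
Tnfaip3: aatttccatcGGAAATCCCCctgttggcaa
Rel: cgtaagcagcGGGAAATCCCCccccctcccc
Nfkb2: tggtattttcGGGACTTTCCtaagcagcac

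The Nfkbia stretch is chr12:55492657-55492686 on the minus strand, with the match beginning at -29 when the first transcribed base is 0. The Bcl3 stretch (chr7:19822734-19822763, minus strand) has its match at 2, just inside the transcript. In Tnfaip3 (chr10:19015403-19015432, minus strand) it begins at -12, and a further match lies at -125. In Rel (chr11:23771041-23771071, minus strand) a run of 11 bases starting at -92 holds overlapping matches. Nfkb2, with 3 annotated starts, had 4 separate matches, of which the one shown (chr19:46305695-46305724, plus strand) begins at 10 from its nearest start. A match in letters is a description, and no binding was measured here.

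The labelled cell type was checked against marker genes. With no detection calls, and with signals of different probe sets not on a shared scale, the levels only place each marker in the range of the table. All 8 adipocyte markers lay above the table's median level of 4.81 (log2). Fabp4 was at 12.37 in mean on exposed and 12.37 on control arrays, Adipoq at 11.57 and 11.58, and Pparg at 10.99 and 10.97. Cidec was at 10.03 and 10.07, Lipe at 9.87 and 9.94, Plin1 at 9.58 and 9.83, Cebpa at 6.14 and 6.38 and Slc2a4 at 5.77 and 5.87. Of the 6 matched preadipocyte and fibroblast markers, 5 also lay above the table's median, with Dlk1 the brightest at 10.34 and 10.62. Cd34 lay below it, at 3.46 and 3.56, and the mean level of the 6 was 8.47. Macrophage markers had a mean level of 3.76, with 3 of 8 below the table's lower quartile of 3.11. The brightest of them was Cd14, at 6.51 and 6.83. None of the 7 matched B and plasma cell markers reached the table's median, and the brightest, Irf4, was at 4.27 and 4.35. Array medians ran from 4.795 to 4.881.

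**Figure D1:**
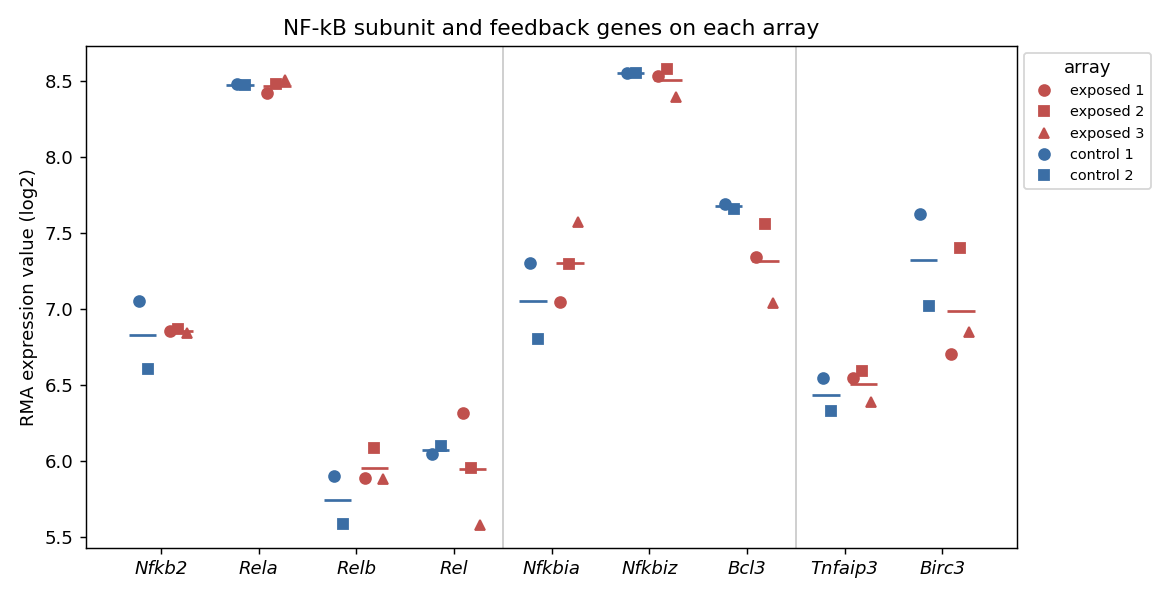
RMA expression values (log2, vertical axis) of the 9 measured members on each array, with exposed arrays in red, control arrays in blue and a bar at each group mean; grey lines part subunits, IkB family and ubiquitin feedback genes, and heights should be compared within a gene, not between genes. Rela and Nfkbiz are nearly level across arrays, Birc3 spans 0.92, and Bcl3 alone has all 3 exposed points below both control points.

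None of the 9 measured NF-kB genes was called different between exposed and control cells. Their mean levels, from 5.87 to 8.52, lay above the median of the table, and the table has no detection calls. At an adjusted p under 0.05 in limma, 0 of 9 members were called, and the share over all 22206 probe sets was 0%. At an unadjusted p under 0.05 the count was again 0 of 9, against 3.49% of all probe sets. In mean, 4 members were higher and 5 lower on exposed arrays. Their median difference was -0.0074 on the log2 scale, beside -0.00040 over all probe sets. For 8 of the 9 the 95% interval lay inside a 2-fold difference either way, as it did for 92.9% of all probe sets.

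Rela encodes p65, the subunit that carries most of the activating function of the common NF-kB dimer. It read 8.42, 8.48 and 8.51 on exposed arrays 1 to 3 and 8.48 and 8.47 on control arrays 1 and 2. All 5 arrays therefore lay within 0.086 of each other, and the groups overlapped. The difference was -0.0074 (95% interval -0.30 to 0.28, limma adjusted p 0.998). Its SD over the 5 arrays, 0.031, was so small that 98.6% of probe sets had an SD at least as large.

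Nfkb2 encodes p100, the precursor of p52 and the output of the non-canonical pathway. Its exposed values were 6.85, 6.87 and 6.84, and its control values 7.05 and 6.61. The exposed arrays sat close together between a high and a low control array. The group means were 6.86 ± 0.014 (SD, n = 3) and 6.83 ± 0.32 (SD, n = 2), a difference of 0.025 (-0.38 to 0.43, limma adjusted p 0.99).

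Relb encodes the partner of p52. It was at 5.89, 6.09 and 5.88 on exposed arrays and at 5.90 and 5.58 on control arrays. Control array 2 was the low one, and control array 1 lay inside the exposed range. The means of 5.95 ± 0.12 (SD, n = 3) and 5.74 ± 0.22 (SD, n = 2) differed by 0.21 (-0.17 to 0.59, limma adjusted p 0.93).

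Rel encodes c-Rel, a subunit best known from lymphocytes. Its exposed values ran from 6.32 on array 1 through 5.95 on array 2 to 5.58 on array 3, and the control values were 6.05 and 6.10. Both control arrays fell inside the exposed range. The exposed SD of 0.37 (n = 3) exceeded the difference of -0.12 (-0.67 to 0.42, limma adjusted p 0.95).

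Among the IkB family genes, Nfkbia read 7.04, 7.30 and 7.57 on exposed arrays and 7.30 and 6.80 on control arrays. The highest value was exposed array 3 and the lowest control array 2, with the other 3 arrays between them. Means of 7.30 ± 0.26 (SD, n = 3) and 7.05 ± 0.35 (SD, n = 2) gave a difference of 0.25 (-0.29 to 0.79, limma adjusted p 0.93), the widest upward among the members.

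Nfkbiz encodes IkB-zeta, a nuclear cofactor that helps NF-kB turn on a secondary set of genes. It was at 8.53, 8.58 and 8.40 on exposed arrays and at 8.56 on both control arrays, where the deposited values were identical. Exposed array 3 was the low one. The difference of -0.051 (-0.36 to 0.26, limma adjusted p 0.97) was smaller than the exposed SD of 0.095 (n = 3).

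Bcl3 encodes a nuclear IkB protein that binds p50 and p52 dimers. Its exposed values were 7.34, 7.56 and 7.04, and its control values 7.69 and 7.66. Every exposed array read lower than both control arrays. Bcl3 was the only member of the 9 whose groups did not overlap, and 8.84% of all probe sets were lower in the same way (8.5% were higher without overlap, 17.3% in either direction). The means of 7.31 ± 0.26 (SD, n = 3) and 7.68 ± 0.025 (SD, n = 2) differed by -0.36 (-0.80 to 0.073), with an unadjusted p of 0.088 and an adjusted p of 0.93 in limma, so it was not called. Among the 8 adipocyte markers, exposed array 3 had the lowest reading of 5 and the highest of Adipoq (11.73). It also had the lowest mean of that list (9.41, against 9.60 to 9.63 on the other 4 arrays). The part of this in the Bcl3 and Rel values was not tested. Without exposed array 3 the Bcl3 difference was -0.22.

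Tnfaip3 encodes A20, an enzyme that edits ubiquitin chains and shuts off signalling to NF-kB. It read 6.54, 6.59 and 6.39 on exposed arrays and 6.54 and 6.33 on control arrays. The groups overlapped, and exposed array 1 and control array 1 held the same deposited value. The difference was 0.072 (-0.27 to 0.41, limma adjusted p 0.96).

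Birc3 encodes cIAP2, a ubiquitin ligase at the TNF receptor that also restrains the non-canonical pathway. It was at 6.70, 7.40 and 6.85 on exposed arrays and at 7.62 and 7.02 on control arrays. Exposed array 2 lay between the control arrays, and exposed arrays 1 and 3 below them. The SD over all 5 arrays was 0.38, which 8.37% of probe sets reached. The means of 6.98 ± 0.37 (SD, n = 3) and 7.32 ± 0.43 (SD, n = 2) gave a difference of -0.34 (limma adjusted p 0.93). Its interval of -1.003 to 0.33 was the only one to reach a 2-fold decrease.

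**Figure D2:**
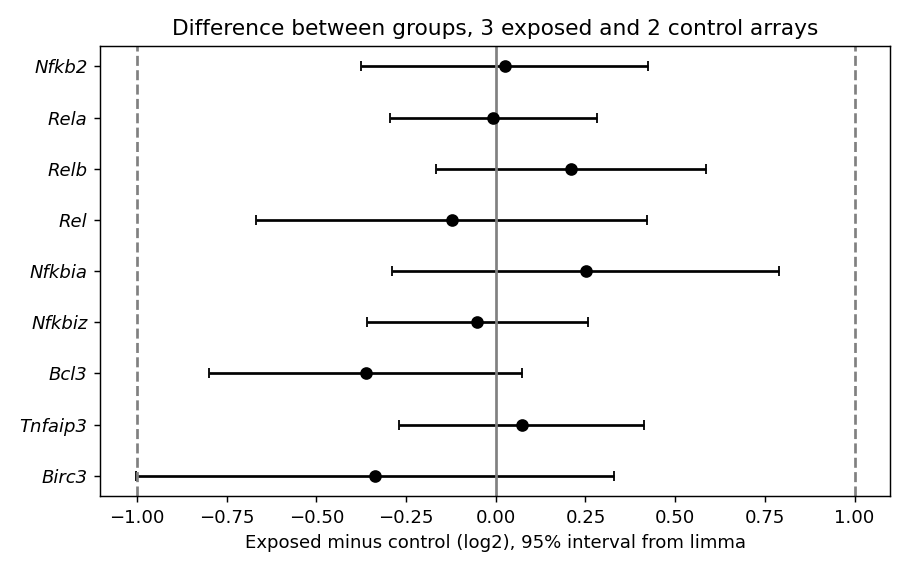
Difference between the 3 exposed and 2 control arrays (horizontal axis, log2) for the 9 measured members, with 95% intervals from limma; dashed lines mark a 2-fold difference. All 9 intervals include 0, from -0.36 for Bcl3 to 0.25 for Nfkbia, and the Birc3 interval alone reaches a dashed line.

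The members did not rise and fall as one across the arrays. On control array 1 all 9 were above their own 5-array means, and on exposed array 2, 8 were. On exposed arrays 1 and 3 and control array 2 the counts were 5, 3 and 4. Averaged over the members, the deviations were -0.035, 0.095 and -0.10 on exposed arrays 1 to 3 and 0.14 and -0.094 on control arrays 1 and 2. Each group thus held arrays on both sides of the mean.

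The control arrays themselves differed for several members. Of the 9, 7 were higher on control array 1 than on control array 2, 1 was lower and 1 equal. The median gap was 0.22, while over all probe sets it was 0.0 and 46.5% were higher on control array 1. Birc3 had the widest gap at 0.61, followed by Nfkbia at 0.50, Nfkb2 at 0.45 and Relb at 0.32. A gap at least as wide as that of Birc3 was found for 6.73% of probe sets, and one as wide as that of Nfkbia for 11.0%. For 5 of the 9 members the control gap exceeded the difference between the groups, as it did for 56.0% of all probe sets. The exposed range exceeded that difference for 8 of the 9 members and for 81.8% of all probe sets.

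**Figure D3:**
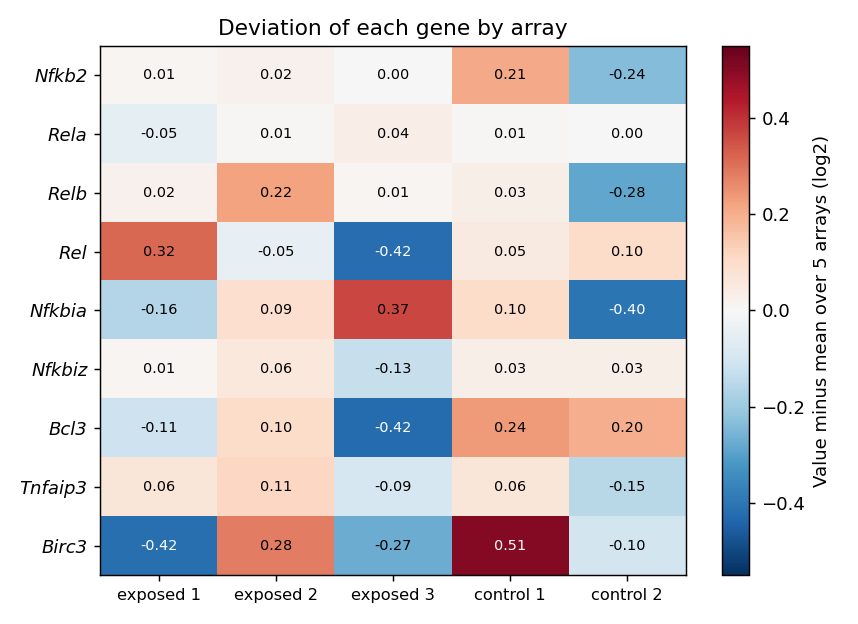
Value of each member on each array minus its mean over the 5 arrays (log2; red higher, blue lower), with genes in rows and arrays in columns. The control array 1 column holds no negative value, exposed array 3 combines a high Nfkbia (0.37) with low Bcl3 and Rel (each -0.42), and the Rela row stays between -0.051 and 0.035.

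Patterns were compared by the root mean square distance between centred values over the 5 arrays, given as a description. Nfkb2 and Tnfaip3, at a distance of 0.097, deviated in the same direction on all 5 arrays, the only one of the member pairs to do so. Relb and Tnfaip3, at 0.092, did so on 4 of the 5. Other close pairs were Rela with Nfkbiz (0.082) and Nfkbiz with Tnfaip3 (0.092), in which the members hardly varied. The farthest pair was Rel and Nfkbia at 0.47, which shared a sign on 1 array, followed by Nfkbia and Bcl3 at 0.45. Outside the members, 9995 genes at or above the table's median level were compared with Birc3 and Nfkbia, the members of largest SD. Closest to Birc3 were Cplane1 (0.081), Wdr45b (0.098) and Thoc2 (0.098). Thoc2, of an RNA export complex, read 5.52, 6.09 and 5.65 on exposed arrays and 6.44 and 5.58 on control arrays. Closest to Nfkbia were 6030458C11Rik (0.052), Garre1 (0.053) and the calcium channel subunit gene Cacna2d1 (0.056).

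Genes that act before and after the NF-kB subunits were taken from 5 lists by role. Of 106 listed genes 98 were measured, with 43 higher and 55 lower in mean on exposed arrays. None of the 98 was called by limma (0% of all probe sets), and 3 of them (3.06%) had an unadjusted p under 0.05, near the 3.49% of all probe sets. The groups did not overlap for 21 (21.4%), beside 17.3% of all probe sets.

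Ligands, the secreted or membrane signals that start the pathway, were mostly dim, with 1 of 11 at or above the table's median and 3 below its lower quartile. RMA compresses differences between such dim signals. Of these 11, 6 were higher and 5 lower, 0 passed, and the median difference was 0.19. Il17a, the interleukin-17A gene, read 5.07, 4.32 and 4.90 on exposed arrays and 4.23 and 4.24 on control arrays, a difference of 0.53 (-0.044 to 1.10, limma adjusted p 0.93). Lta, which encodes lymphotoxin-alpha, was at 6.002, 5.57 and 5.58 against 5.41 and 5.25, a difference of 0.39 (-0.042 to 0.82). Il1a, the interleukin-1-alpha gene, was chosen after its values were seen. It was dim, at 2.39 ± 0.13 (SD, n = 3) against 2.73 ± 0.022 (SD, n = 2), with an unadjusted p of 0.044 and an adjusted p of 0.93 in limma. The ligand median was -0.0013 without control array 1 and 0.062 without exposed array 3.

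Receptors had the lowest median of the 5 lists, -0.18, with 10 of 16 lower and 6 higher, and 0 passed. Il1r1, the signalling receptor for interleukin-1, read 8.63, 8.94 and 8.53 on exposed arrays and 9.11 and 9.15 on control arrays. All exposed arrays were below both control arrays, and the difference was -0.43 (-0.82 to -0.037), with an unadjusted p of 0.036 and an adjusted p of 0.93 in limma. Tlr2, a receptor for bacterial lipopeptides, was at 7.60, 7.47 and 7.59 against 8.18 and 7.75. It too was lower on every exposed array, by -0.42 in mean (-0.82 to -0.013), with an unadjusted p of 0.045 and an adjusted p of 0.93 in limma. Tnfrsf1a, the main TNF receptor gene and chosen here after its values were seen, differed by 0.013 (-0.32 to 0.34). The receptor median lay between -0.14 and -0.056 with 1 array left out, and was nearest to 0 without control array 2.

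The 19 measured adaptors and kinases, which relay the signal from receptors to the IkB kinases, had a median of -0.056 with 6 higher, 13 lower and 0 passing. Tab1, a partner of the kinase TAK1, read 5.57, 5.87 and 6.20 against 6.40 and 6.26, a difference of -0.45 (-0.95 to 0.045, limma adjusted p 0.93). Map3k14 encodes NIK, the kinase that starts the non-canonical pathway. It was at 6.40, 5.72 and 5.95 against 6.37 and 6.26, and its groups overlapped. The list's median was -0.12 without exposed array 1 and -0.036 without control array 1.

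Among 19 other inhibitors and feedback genes, 10 were higher and 9 lower, with a median of 0.043 and 0 passing. Zc3h12a, which encodes the cytokine mRNA nuclease regnase-1, was at 6.18, 6.40 and 6.18 on exposed arrays and at 6.18 and 5.70 on control arrays. Control array 2 was the low one, as it was for Relb, Nfkbia, Nfkb2 and Tnfaip3, and the difference was 0.31 (-0.13 to 0.76, limma adjusted p 0.93), or 0.074 without that array. Tnip3, an A20-binding protein gene, was at 7.51, 7.20 and 6.76 against 6.80 and 7.00 (0.26, -0.31 to 0.83), and its difference was 0.083 without exposed array 1. The list's median was -0.029 without control array 1 and 0.0091 without exposed array 2. All 19 intervals lay inside a 2-fold difference, as did those of 92.9% of all probe sets.

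Target genes, the chemokines, cytokines and enzymes that NF-kB is known to induce, were split 15 higher and 18 lower among 33, with a median of -0.016 and 0 passing. Ccl20, a chemokine gene, read 5.49, 5.63 and 6.45 on exposed arrays and 5.51 and 5.01 on control arrays. The high value was exposed array 3, where Nfkbia was also highest, and the groups overlapped. The difference was 0.60 (-0.19 to 1.38, limma adjusted p 0.93), and 0.30 without that array. Bcl2l1, which encodes the survival protein BCL-xL, was at 6.51, 6.42 and 5.39 against 6.57 and 6.69. Its difference of -0.52 (-1.36 to 0.32) came with exposed array 3 more than 1 log2 unit below the other arrays, and was -0.16 without it. The list's median changed sign with the arrays used, from -0.041 without control array 2 to 0.026 without control array 1. As with the members, more targets were higher on control array 1 than on control array 2 (24 of 33, with 8 lower), with a median gap of 0.11. The same direction was seen for adaptors and kinases (12 higher, 6 lower), other inhibitors and feedback genes (11 and 8) and ligands (6 and 4). Receptors went the other way (7 and 9).

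**Figure D4:**
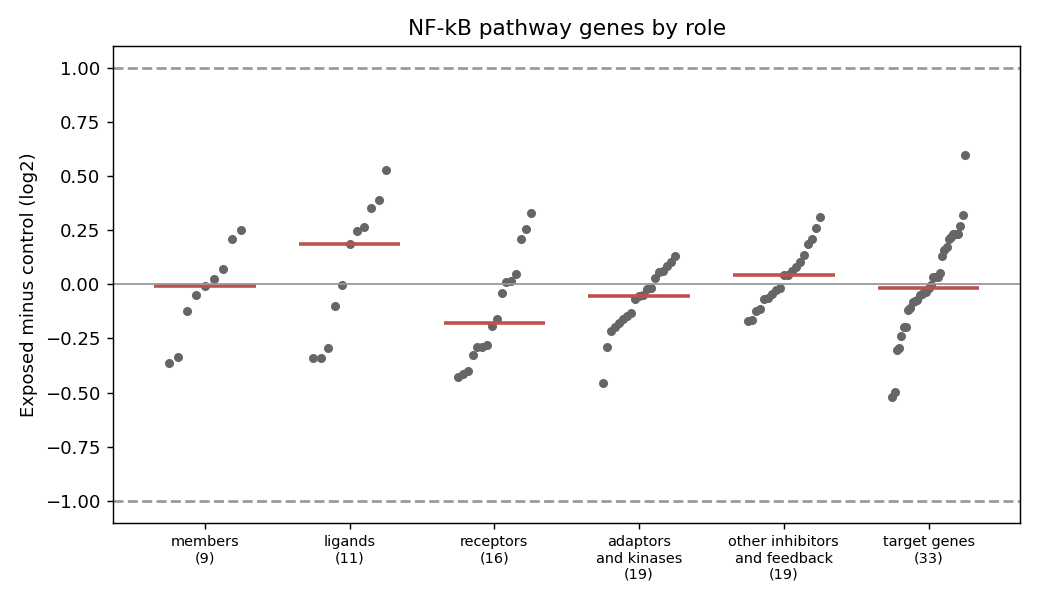
Difference between exposed and control arrays (vertical axis, log2) for each measured member and for the genes of 5 pathway lists, with the number of genes in brackets; each point is a gene, red bars are medians and dashed lines mark a 2-fold difference. All points lie between the dashed lines, and medians run from -0.18 for receptors to 0.19 for ligands.

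The kB consensus was also counted in the promoter windows of the other lists. It was present in 12 of the 22 target genes with a window (54.5%) and in 6 of 15 other inhibitors and feedback genes (40.0%). It was found in 3 of 13 receptors (23.1%), 2 of 15 adaptors and kinases (13.3%) and 1 of 10 ligands (10.0%). Among measured genes that had a promoter window, the 1660 with a match had a median difference of 0.0078 between exposed and control arrays and the 14031 without one a median of -0.0019. Of the genes with a match, 856 were higher and 804 lower, limma called 0, and the groups did not overlap for 18.2%, beside 17.3% of the genes without a match.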

How the data were processed

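The deposited values are log2 expression values from 5 Affymetrix Clariom S mouse arrays, 1 per sample, which the authors made by RMA; the submitters' processing notes name RMA and Partek. Software versions and the build of the array annotation are not given in the sources used here. Of 22206 probe sets, 19572 had 1 gene symbol and 2634 none. The table has no detection calls, and 6038 probe sets (27.2%), 3 members among them, hold the same value on at least 2 arrays.

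Groups were compared over all probe sets in R 4.3.3 by limma 3.58.1 (lmFit, then eBayes, with a group term alone; two-sided p-values with Benjamini-Hochberg adjustment; 3 residual degrees of freedom), and called at an adjusted p under 0.05. The script was tested on simulated data. Differences are exposed minus control.

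The members and lists were chosen with earlier results of these data known. All 10 members were named, and from each pathway list the called genes or, with none called, the 2 of largest absolute difference; further names are marked where they stand. For likeness, the 3 nearest genes to each of the 2 members of largest SD were taken. Of 149 listed genes 13 were not matched. Promoter windows come from RefSeq, matched by symbol, and the array's own build is unknown.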

Additional observations from a re-analysis of the deposited data

How the results depend on the processing

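No member and no pathway gene was called under any of the 13 alternative fits, which covered array scaling, a filter on level, the variance moderation, array weights, a replicate block and each array left out in turn, and limma called 0 of all probe sets in each. Taking an unadjusted p under 0.05 in place of the adjusted one gave 776 of all probe sets, 0 members and 3 pathway genes. That count of all probe sets was 362 when only the 11103 at or above the table's median level were tested. It ran from 760 to 1378 when 1 array was dropped, highest without control array 1, a fit in which the spread comes from the exposed arrays and the remaining control is taken to share it.

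Relb, Nfkbia, Bcl3 and Birc3 kept their sign in all 13 fits, at 0.053 to 0.37, 0.0013 to 0.50, -0.48 to -0.22 and -0.64 to -0.034. Fits that changed only the filter on level or the variance moderation left each difference as it was, so no sign could change in them. The replicate block repeated the differences found without exposed array 3. The 10 pathway genes named by the rule had been picked for large differences on these same arrays, which favours a stable sign. They kept their sign in each fit that included them, and the filter on level left out Il17a alone of these 10. With 1 array left out these ran from 0.37 to 0.75 for Il17a, 0.25 to 0.47 for Lta, -0.55 to -0.34 for Il1r1, -0.63 to -0.20 for Tlr2, -0.62 to -0.30 for Tab1, -0.48 to -0.14 for Map3k14, 0.074 to 0.55 for Zc3h12a, 0.083 to 0.46 for Tnip3, 0.30 to 0.84 for Ccl20 and -0.72 to -0.16 for Bcl2l1. The other 5 members, with differences near 0, did not. Rela was 0.033 after a new quantile normalization. With 1 array left out in turn, Rela ran from -0.026 to 0.017 (without exposed array 1), Nfkb2 from -0.20 (without control array 2) to 0.25, Tnfaip3 from -0.036 (without control array 2) to 0.18, Rel from -0.31 to 0.062 and Nfkbiz from -0.090 to 0.0020. The positive values of Rel and Nfkbiz were those without exposed array 3, and they were the same with the replicate number as a block, which leaves that array without a partner and 1 residual degree of freedom. The numbers were not shown to pair the samples: deviations from the group means correlated at -0.014 for the arrays numbered 1 and at -0.032 for those numbered 2, over probe sets. The block called 0 probe sets, as did the fit without it. The cause of these changes was not tested. The median over the members stayed between -0.051 and 0.033. Of 116 medians of the other lists under the alternatives, 29 moved by more than the SD of the list's mean over the exposed arrays. No member had a further probe set, so the alternative of another probe set was not run.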
